A study of Homo sapiens with 8 samples.

Results

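Target genes of the tumour suppressor p53, 9 in number, were followed in NALM6 cells, an established line of human precursor B-cell acute lymphoblastic leukaemia. The targets were CDKN1A, MDM2, CCNG1, GADD45A, TP53INP1, ZMAT3, FDXR, SESN1 and BTG2, listed by symbol for their known place in the p53 pathway. They were 9 of 27448 genes in the table of all reads and 8 of 6993 genes in the table of converted reads, which has no row for TP53INP1.

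NALM6 cells carried a doxycycline-inducible HMGN1, a small chromatin protein that binds nucleosomes. Induced wild type (3 libraries) was the wild-type HMGN1 line with doxycycline at 100 ng/ml for 6 h. Induced mutant (2 libraries) was a line with HMGN1 S20,24E, deficient in nucleosome binding, given the same doxycycline. Vehicle (3 libraries) was the wild-type HMGN1 line with vehicle for 6 h. All 3 groups received 4-thiouridine at 100 µM for the last 5 h, and no library of the mutant line without doxycycline is analysed here, so that the mutant line and the mutant protein cannot be told apart. Nor is a line without the inducible gene, so that HMGN1 and doxycycline itself cannot be told apart either. The labels do not say that replicates A, B and C came from separate cultures, and p-values then measure only the spread between these libraries, which may be technical.

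In SLAM-seq, newly made RNA takes up 4-thiouridine, which is read after thiol modification as T-to-C conversions. For each gene there were 3 deposited measures. The first was the level in all reads, as CPM, read counts scaled to the library total. The second was the conversion rate, the share of its convertible bases read as converted, which is higher for RNA of which more was made during labelling. The third was the level of converted reads, as FPKM, fragments per kilobase scaled to library size. The CPM values are not per length and are compared within a gene only.

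The protein p53 is held low by MDM2, a ubiquitin ligase that it also induces, so that the pair form a feedback loop. When DNA is damaged or ribosomes are disturbed, p53 accumulates and activates genes that halt the cell cycle, repair DNA, adjust metabolism or start cell death. CDKN1A encodes p21, the inhibitor of cyclin-dependent kinases, and p21 in turn lets the DREAM complex repress genes of mitosis. The mRNAs of several targets turn over quickly.

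p53 binds a pair of 10-base half-sites, and 3 promoters are shown because a search on both strands found such letters in them. The windows hold 300 bases, 250 before and 50 after a RefSeq start, on GRCh38.p14, while the libraries were processed on another build. RefSeq windows were matched for 7 of the 9 targets. The MDM2 window is chr12:68808767-68809066 on the plus strand, at the downstream one of its promoters, where a pair of half-sites with 2 mismatches and a spacer of 0 bases begins 94 bases before the start. The FDXR window is chr17:74872945-74873244 on the minus strand, with an exact half-site 11 bases before the start that is also the second of a pair with 2 mismatches and a spacer of 10 bases. The SESN1 window is chr6:109008939-109009238 on the minus strand, with an exact half-site 49 bases before the start. Capitals mark the half-sites.
MDM2: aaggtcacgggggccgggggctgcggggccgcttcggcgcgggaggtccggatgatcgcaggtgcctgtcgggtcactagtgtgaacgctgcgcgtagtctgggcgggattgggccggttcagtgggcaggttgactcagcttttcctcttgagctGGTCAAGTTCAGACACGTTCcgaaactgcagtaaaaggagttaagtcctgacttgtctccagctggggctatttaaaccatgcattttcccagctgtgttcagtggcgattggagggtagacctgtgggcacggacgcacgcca
FDXR: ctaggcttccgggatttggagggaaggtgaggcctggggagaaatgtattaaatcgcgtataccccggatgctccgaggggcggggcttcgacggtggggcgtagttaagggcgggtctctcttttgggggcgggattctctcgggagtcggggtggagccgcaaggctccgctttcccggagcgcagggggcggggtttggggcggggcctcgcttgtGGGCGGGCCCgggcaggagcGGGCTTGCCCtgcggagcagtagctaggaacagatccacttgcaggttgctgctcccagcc
SESN1: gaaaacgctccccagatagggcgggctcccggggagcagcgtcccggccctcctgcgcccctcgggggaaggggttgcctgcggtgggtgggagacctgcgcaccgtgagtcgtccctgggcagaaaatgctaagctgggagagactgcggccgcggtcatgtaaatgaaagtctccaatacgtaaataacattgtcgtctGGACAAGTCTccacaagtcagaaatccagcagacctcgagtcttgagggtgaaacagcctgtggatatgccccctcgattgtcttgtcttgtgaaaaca
Of 34796 such windows in the genome, 6.65% held an exact half-site and 2.93% a pair with at most 2 mismatches and a spacer of at most 13 bases. These shares are per window, while the 7 targets had 15 windows, so a count of targets cannot be set against them. MDM2, FDXR and SESN1 each also had windows without a match, and the MDM2 pair recurs in an overlapping window. No match was found in the windows of CDKN1A, BTG2, CCNG1 and ZMAT3, and a match is a description of the letters only. The half-sites of CDKN1A are known to lie farther upstream than such a window reaches.

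Depth was inferred from the smallest nonzero CPM of each library, at 7.99 to 17.7 M reads. It may count a read more than once, since reads repeat over transcripts of a gene. Reads summed over 1 row per gene came to 3.44 to 7.86 M. The mean of the genes' conversion rates, weighted by their CPM, was 2.64 to 5.20%. This weighted mean is called the converted share of a library below. HMGN1 stood at 252, 217 and 317 CPM in induced wild type and at 223 and 199.5 CPM in induced mutant. With vehicle it stood at 191, 153 and 145 CPM, so that every induced library was above every vehicle library. The same held for its conversion rate, with means of 4.82% in induced wild type, 3.32% in induced mutant and 1.47% with vehicle. In converted reads its groups overlapped, at 7.75, 5.39 and 4.94 FPKM in induced wild type and 4.15 and 2.62 FPKM in induced mutant. Vehicle had 2.64, 6.04 and 5.44 FPKM of HMGN1 there, with a mean above that of induced mutant. The reason for this was not tested. All 10 B-lineage markers had a mean of at least 1 CPM, and they summed to 912 to 1033 CPM. No T-cell, erythroid or fibroblast marker reached that mean, with CD3D, CD2 and HBB at 0 in every library. Of 5 myeloid markers, 2 reached it, CSF1R at 338 to 512 CPM and LYZ at a mean of 1.47 CPM. TP53INP1 was the thinnest target at 15 to 84 reads per library, against 1483 to 6220 reads for CDKN1A, so the counting error is largest for TP53INP1.

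CDKN1A had 328, 209.8 and 383 CPM in induced wild type, 430.3 and 313 CPM in induced mutant and 167, 276 and 350.5 CPM with vehicle. The highest library was induced mutant A and the lowest vehicle A, 2.58-fold apart, and the 3 groups overlapped. In the fit across all genes the log2 difference in CPM was 0.23 (SE 0.29) for induced wild type minus vehicle and 0.54 (SE 0.33) for induced mutant minus vehicle, with limma adjusted p of 0.993 and 1.00. Without vehicle A the first was -0.06. The gene lies on chromosome 6 and overlaps the antisense gene DINOL, and whether reads were counted by strand is not given in the sources used here. CDKN1A gave 51.5 to 63.9% of the summed CPM of the 9 targets, a share of reads that is not scaled to gene length and does not compare expression.

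MDM2 had 52.1, 31.2 and 95.5 CPM in induced wild type, 72.3 and 42.5 CPM in induced mutant and 29.5, 49.5 and 60.2 CPM with vehicle. Its 3.24-fold range between induced wild type C and vehicle A lay across the groups, which overlapped. The log2 difference in CPM was 0.27 (SE 0.39) for induced wild type minus vehicle and 0.31 (SE 0.44) for induced mutant minus vehicle, each smaller than its SE. The first was -0.14 without induced wild type C and -0.02 without vehicle A, and the second was -0.06 without induced mutant A. MDM2, on chromosome 12, overlaps 4 annotated genes, including the antisense gene of carboxypeptidase M and genes on its own strand that have clone names only.

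Among the targets that restrain growth, BTG2, an antiproliferative adaptor of mRNA deadenylation, had 21.2, 15.3 and 33.2 CPM in induced wild type, 27.0 and 17.1 CPM in induced mutant and 13.8, 21.7 and 27.8 CPM with vehicle. CCNG1, cyclin G1, which recruits a phosphatase to MDM2, had 50.1, 26.4 and 49.6 CPM in induced wild type, 33.9 and 26.0 CPM in induced mutant and 41.1, 41.9 and 51.8 CPM with vehicle. Both mutant libraries were below every vehicle library in CCNG1, while induced wild type B was about as low as the mutant. The log2 difference in CCNG1 was -0.57 (SE 0.27, 95% interval -1.18 to 0.04, limma adjusted p = 1.00) for induced mutant minus vehicle. With the converted share as a covariate, chosen after seeing the data, it was -0.71 (limma adjusted p = 0.00267), in a fit that called 536 genes in place of 4. CCNG1 has a pseudogene copy, CCNG1P1.

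GADD45A, a stress sensor with a role in DNA repair, had 30.9, 24.9 and 36.6 CPM in induced wild type, 37.4 and 26.9 CPM in induced mutant and 22.8, 25.9 and 33.8 CPM with vehicle. Its groups overlapped, and its range over all libraries was 1.64-fold. TP53INP1, a nuclear protein that promotes p53 phosphorylation, had 3.27, 1.88 and 6.09 CPM in induced wild type, 5.01 and 4.57 CPM in induced mutant and 3.60, 4.34 and 4.17 CPM with vehicle. Both mutant libraries were above all vehicle libraries, but induced wild type spanned 3.24-fold around them. ZMAT3, an RNA-binding zinc finger protein that acts on splicing and mRNA stability, had 12.3, 8.39 and 19.0 CPM in induced wild type, 20.1 and 10.9 CPM in induced mutant and 9.67, 10.9 and 13.5 CPM with vehicle. Here induced mutant A and induced wild type C stood together above the other libraries, and the groups overlapped.

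FDXR, the mitochondrial reductase that passes electrons to ferredoxin, had 32.2, 36.3 and 30.9 CPM in induced wild type, 34.7 and 40.9 CPM in induced mutant and 31.0, 29.4 and 28.4 CPM with vehicle. The mutant libraries were above every vehicle library, and the log2 difference was 0.34 (SE 0.16, 95% interval -0.03 to 0.70, limma adjusted p = 1.00). FDXR was the steadiest of the targets, 1.44-fold from its lowest to its highest library. SESN1, sestrin 1, which restrains the growth kinase complex mTORC1, had 8.20, 5.89 and 14.6 CPM in induced wild type, 12.4 and 10.3 CPM in induced mutant and 5.62, 8.68 and 10.5 CPM with vehicle, with overlapping groups.

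**Figure D1:**
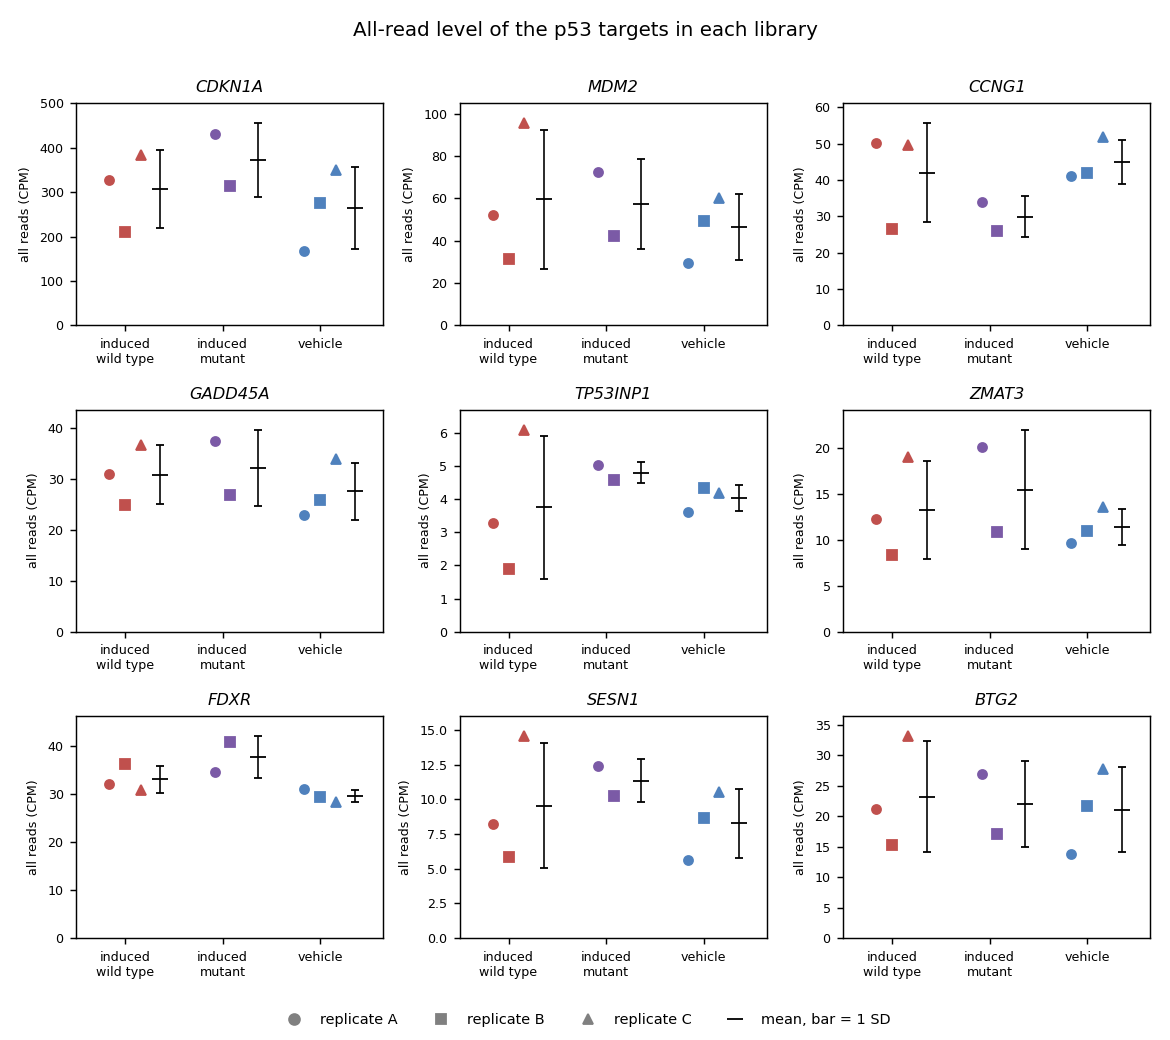
All-read CPM of the 9 p53 targets (vertical axes, from 0) in each library of induced wild type, induced mutant and vehicle, with replicate letters as symbols and the group mean ± 1 SD as black bars. The groups overlap for most targets; FDXR at 34.7 and 40.9 CPM in induced mutant lies above every vehicle library, and CCNG1 at 33.9 and 26.0 CPM lies below.

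For induced wild type minus vehicle, which asks what 6 h of doxycycline and the HMGN1 it induces do together, no target passed in all reads by limma, edgeR or DESeq2, and 0 had an unadjusted p under 0.05. Of all genes 0% passed by limma and 0.938% had such an unadjusted p. The log2 difference was above 0 for 7 of the 9 targets, where 67.6% of all genes were above 0, and its median over the targets was 0.14 against 0.09 over all genes. This direction rested on single libraries, with 3 of 9 above 0 without induced wild type C and 3 of 9 without vehicle A. With the converted share as a covariate 1 of 9 was above 0, and CDKN1A at -0.12, MDM2 at -0.22, GADD45A at -0.06, ZMAT3 at -0.18, SESN1 at -0.20 and BTG2 at -0.27 turned below it. No target passed either for induced mutant minus vehicle, with 0 targets at an unadjusted p under 0.05, where 0.0321% of genes passed and 3.74% had such a p. Here 8 of the 9 targets were above 0, against 42.5% of all genes, and their median was 0.31 against -0.04 over all genes. Without induced mutant A 4 of 9 were above 0, and with the converted share as a covariate 7 of 9. FDXR and TP53INP1 did not overlap vehicle on the high side, as 4.61% of genes did, and CCNG1 on the low side, as 11.4% did. Both comparisons share the vehicle libraries. No target passed for induced mutant minus induced wild type, with 0 at an unadjusted p under 0.05. There 0.0321% of genes passed and 2.75% had such a p, and 7 of 9 targets were above 0 where 26.7% of genes were, or 4 of 9 without induced mutant A and 4 of 9 without induced wild type B.

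The spread within each group exceeded these differences for most targets, and it was shared. The 8 libraries, ordered by their converted share from the highest, were induced wild type C (5.20%), induced mutant A (4.65%), vehicle C (4.50%), induced wild type A (4.37%), vehicle B (3.68%), induced mutant B (3.41%), induced wild type B (3.39%) and vehicle A (2.64%). MDM2 CPM followed this order without exception, whatever the group. The libraries with the 3 highest shares, 1 of each group, held the 3 highest values of CDKN1A, MDM2, GADD45A, ZMAT3, SESN1 and BTG2. In each of those 3 libraries 8 of the 9 targets were above their own mean, against 1 of 9 in induced wild type B, FDXR, and 1 of 9 in vehicle A, CCNG1. Other genes leaned the same way, with 77.5% of them above their own mean in induced wild type C and 23.4% in vehicle A. Induced mutant A was different in this, at 8 of 9 targets and 47.3% of all genes.

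The relation was measured as the slope of log2(CPM + 1) per percentage point of converted share, with the groups in the model, a measure added after seeing the data. The share is itself weighted by these CPM values, so the slopes and their p-values are a description only. The slope was positive with a limma adjusted p below 0.05 for 8 of the 9 targets, where 54.1% of all genes passed upward and 7.34% downward. It was 0.69 (SE 0.07, adjusted p = 1.68e-08) for MDM2, a 1.61-fold higher CPM per point, and 98.2% of genes had a lower slope. BTG2 followed at 0.54, CDKN1A at 0.50, SESN1 at 0.48 and ZMAT3 at 0.46, all with SE of 0.07 to 0.09. TP53INP1 at 0.34, CCNG1 at 0.32 and GADD45A at 0.31 were nearer to the median slope of all genes, 0.24. FDXR stood apart at -0.11 (SE 0.07, adjusted p = 0.159). With the library median of gene rates in place of the share, 8 of the 9 targets and 6364 of 12478 genes passed upward.

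Inferred depth was lowest in the 2 libraries with the lowest converted shares, at 7.99 M reads in induced wild type B and 8.89 M in vehicle A. No gene passed on depth alone. With depth as a further covariate 6 of the 9 targets passed upward on the converted share, as did 3397 of 12478 genes. With each library centred on its median, which sets the common lean aside, 11.5% of genes passed upward and 29.3% downward, and the median slope of all genes was -0.06. Then MDM2 at 0.39 (SE 0.07, limma adjusted p = 4.24e-05), BTG2 at 0.25 (adjusted p = 0.00388) and CDKN1A at 0.21 (adjusted p = 0.0128) still passed upward. FDXR passed downward at -0.41 (SE 0.06, adjusted p = 1.47e-05), and the other 5 targets did not pass. Without induced wild type B the slopes of TP53INP1 and CCNG1 no longer passed, and without induced wild type C that of TP53INP1 did not.

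**Figure D2:**
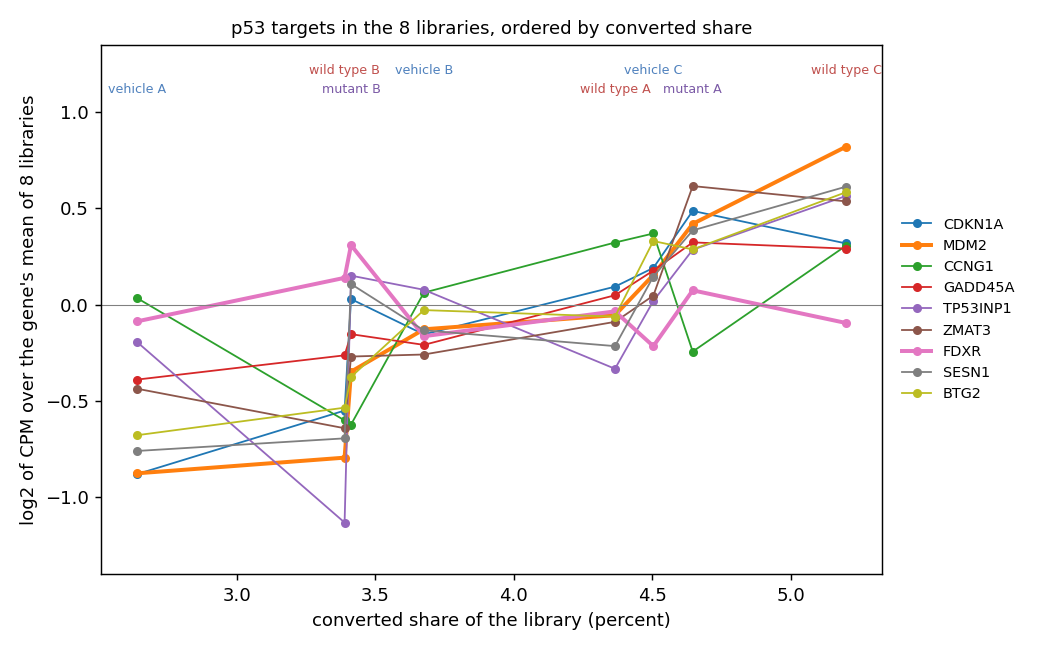
Log2 of CPM over each target's own mean of 8 libraries (vertical axis) against the converted share of the library in percent (horizontal axis), a line per target, with the libraries named at the top in the colour of their group. MDM2 is highest in induced wild type C at a converted share of 5.20%, lowest in vehicle A at 2.64%, and in step between them. FDXR does not climb with it, and CCNG1 is low in both mutant libraries.

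As to which targets went together, the 36 pairs among the 9 targets had a median Pearson r of 0.73 in log2 CPM over the 8 libraries, as a description of libraries that share depth and converted share. With each library centred on its median it was 0.27, and 24 of 36 were above 0. FDXR and CCNG1 were the exceptions. FDXR had a median r of -0.20 with the other targets, CCNG1 had 0.39, and between FDXR and CCNG1 r was -0.88. Within groups, with group means removed, CCNG1 went with the 7 targets other than FDXR at r of 0.75 to 0.84, while FDXR stood against them at -0.96 to -0.72. The 21 pairs left without FDXR and CCNG1, a choice made after seeing the values, had r of 0.60 to 0.98 with a median of 0.89, the closest being MDM2 with BTG2. Without vehicle A and induced wild type C, the libraries with the most extreme converted shares, the 21 pairs had a median of 0.86, and with median centring 0.63. With group means and converted share removed, their median was 0.12, and 11 of 21 were above 0. With the 7 targets other than FDXR and CCNG1, FDXR then had a median r of -0.18 (-0.76 to 0.38). CCNG1 had 0.22 (-0.36 to 0.43). A target's median r with the other targets was 0.91 for MDM2, 0.86 for CDKN1A and 0.87 for BTG2, against 0.69, 0.59 and 0.72 with all genes. For CCNG1 and FDXR, with the medians given above, the values with all genes were 0.44 and -0.32.

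The genes most like CDKN1A in log2 CPM over the 8 libraries, among 6197 with a mean of at least 10 CPM, were MTRNR2L2 (r = 0.99), HSPA5 (r = 0.98) and MRM2 (r = 0.98). Those most like MDM2 were DDX55, WDR43 and RFWD3 (r = 0.99 each). Such likeness was common, as 361 genes had r over 0.9 with CDKN1A and 1007 with MDM2.

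The conversion rate differed more between targets than between groups. GADD45A averaged 11.4% ± 1.47 and CDKN1A 11.4% ± 1.20 over the 8 libraries (SD), with the library medians of all genes at 4.92 to 7.32%. GADD45A was above 93.7 to 99.7% of the genes with a mean of at least 5 CPM and CDKN1A above 97.3 to 99.5%. Against genes within 2-fold of their own span the ranges were 92.1 to 99.3% for GADD45A and 97.0 to 99.5% for CDKN1A, close to those over all genes. BTG2 at 8.40% ± 0.80, FDXR at 7.95% ± 1.73 and MDM2 at 7.78% ± 0.91 were above the library median in all 8 libraries. SESN1 at 7.58% ± 1.46 was above it in 6 and ZMAT3 at 5.79% ± 0.68 in 3. TP53INP1 at 4.89% ± 0.58 was above it in 1, and CCNG1 at 3.31% ± 0.49 in 0.

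In this order GADD45A and CDKN1A could not be separated, each being the higher in 4 of 8 libraries. CDKN1A was above BTG2 in 8 of 8 libraries, by 3.02 points. BTG2, FDXR, MDM2 and SESN1 followed each other within their spread, with neighbours in the same order in 4 to 6 of 8 libraries. SESN1 was above ZMAT3 in 6 of 8, ZMAT3 above TP53INP1 in 7 of 8 and TP53INP1 above CCNG1 in 8 of 8. The number of bases behind a rate is not given, so its counting error is unknown. Reads over introns may have been counted too, since 198 of 199 transcript pairs with the same span and different exons had identical values. A gene-level count copied to each transcript would give the same identity, so this is not settled. Where introns were counted, a rate mixes unspliced and spliced RNA.

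**Figure D3:**
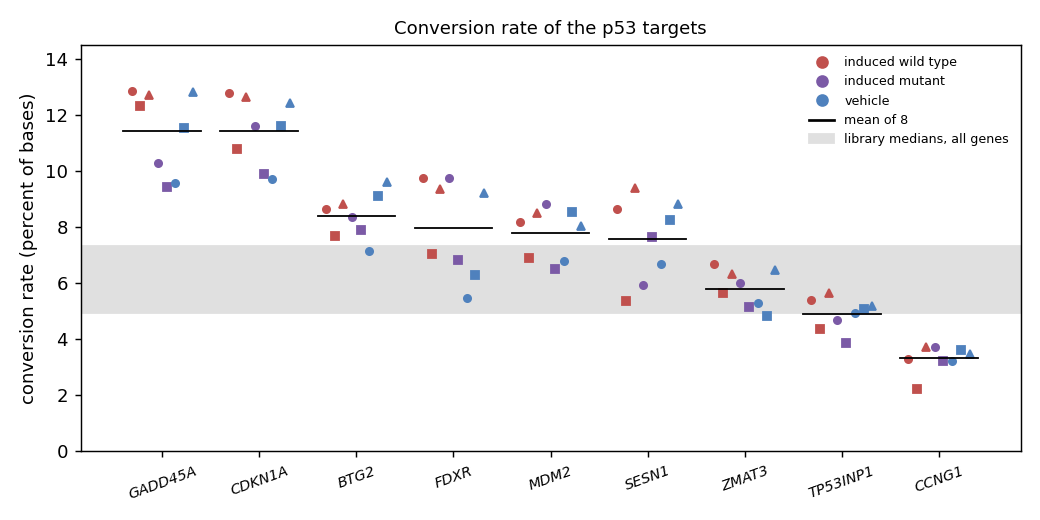
Conversion rate in percent of convertible bases (vertical axis, from 0) for the 9 p53 targets in each of the 8 libraries, coloured by group with replicate letters as circle (A), square (B) and triangle (C), with the mean as a black line and the range of library medians over all genes as a grey band. GADD45A and CDKN1A lie above the band in every library and CCNG1 lies below it in every library.

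Between groups no rate passed. For induced wild type minus vehicle 5 of the 8 targets with a mean of at least 5 CPM were above 0, where 84% of genes were, and 0% of genes passed by limma. In induced mutant minus vehicle 3 of 8 were above 0, where 63.1% of genes were and 0.0343% passed. In induced mutant minus induced wild type 1 of 8 was above 0, where 29% of genes were and 0% passed. At an unadjusted p under 0.05 there were 0, 0 and 1 targets in these comparisons, against 2.45%, 2.46% and 2% of genes. The one was GADD45A, with 10.3 and 9.43% in induced mutant against 12.8, 12.3 and 12.7% in induced wild type, a log2 difference of -0.33 (SE 0.13, limma adjusted p = 1.00). Its mutant rates lay below all wild-type ones, as those of 8.17% of genes did, and vehicle spread across both at 9.57, 11.5 and 12.8%.

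In converted reads MDM2 had 6.64, 9.27 and 15.3 FPKM in induced wild type, 20.7 and 12.1 FPKM in induced mutant and 4.71, 6.34 and 6.67 FPKM with vehicle. Both mutant libraries were above every vehicle library, while induced wild type overlapped both, its lowest library just below the highest vehicle one and its highest above induced mutant B. The log2 difference in FPKM was 1.30 (SE 0.37, 95% interval 0.52 to 2.07, limma adjusted p = 0.142) for induced mutant minus vehicle and 0.67 (SE 0.33, adjusted p = 0.634) for induced wild type minus vehicle, or 0.37 without induced wild type C. The mutant difference did not pass, although it did with the converted share as a covariate at 1.15 (adjusted p = 0.0215), in a fit that called 179 genes in place of 23. Without induced mutant A the mutant difference was 0.93.

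ZMAT3 had 1.34, 2.43 and 3.29 FPKM in induced wild type, 2.97 and 2.61 FPKM in induced mutant and 1.04, 0.32 and 1.05 FPKM with vehicle. Every induced library of either line was above every vehicle library, as 10.7% of genes were for induced wild type. The log2 difference was 1.10 (SE 0.45, limma adjusted p = 0.34) for induced mutant minus vehicle and 0.88 (SE 0.40, adjusted p = 0.615) for induced wild type minus vehicle. FDXR had 5.32, 8.30 and 6.34 FPKM in induced wild type, 8.0 and 7.18 FPKM in induced mutant and 1.05, 5.40 and 4.54 FPKM with vehicle, a log2 difference of 1.04 (SE 0.45, adjusted p = 0.375) for induced mutant minus vehicle. Without vehicle A, the lowest library, that difference was 0.53 (adjusted p = 0.672).

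CDKN1A had 48.2, 39.0 and 64.1 FPKM in induced wild type, 82.1 and 42.7 FPKM in induced mutant and 21.5, 54.8 and 51.3 FPKM with vehicle. The groups overlapped, and the log2 difference was 0.58 (SE 0.37, limma adjusted p = 0.618) for induced mutant minus vehicle. It rested on single libraries, at 0.12 without induced mutant A, 0.16 without vehicle A and 1.04 without induced mutant B. CCNG1 had 2.67, 1.46 and 5.12 FPKM in induced wild type, 5.35 and 1.63 FPKM in induced mutant and 2.11, 6.65 and 3.51 FPKM with vehicle, without a group that stood apart. GADD45A had 1.57, 0.98 and 1.85 FPKM in induced wild type and 0.59 and 0.34 FPKM in induced mutant, and with vehicle it was listed at 0 in replicate A and had 1.60 and 1.76 FPKM in B and C. As in its rate, the mutant libraries were below all induced wild-type ones, as were 11.8% of genes. SESN1 had 0.23, 0.98 and 2.67 FPKM in induced wild type and 2.07 and 0.65 FPKM in induced mutant, and with vehicle it was listed at 0 in replicate A and had 1.27 and 1.92 FPKM in B and C. BTG2 was listed at 0 in 3 libraries, reached 0.82 FPKM at most, in induced wild type C, and was not tested.

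**Figure D4:**
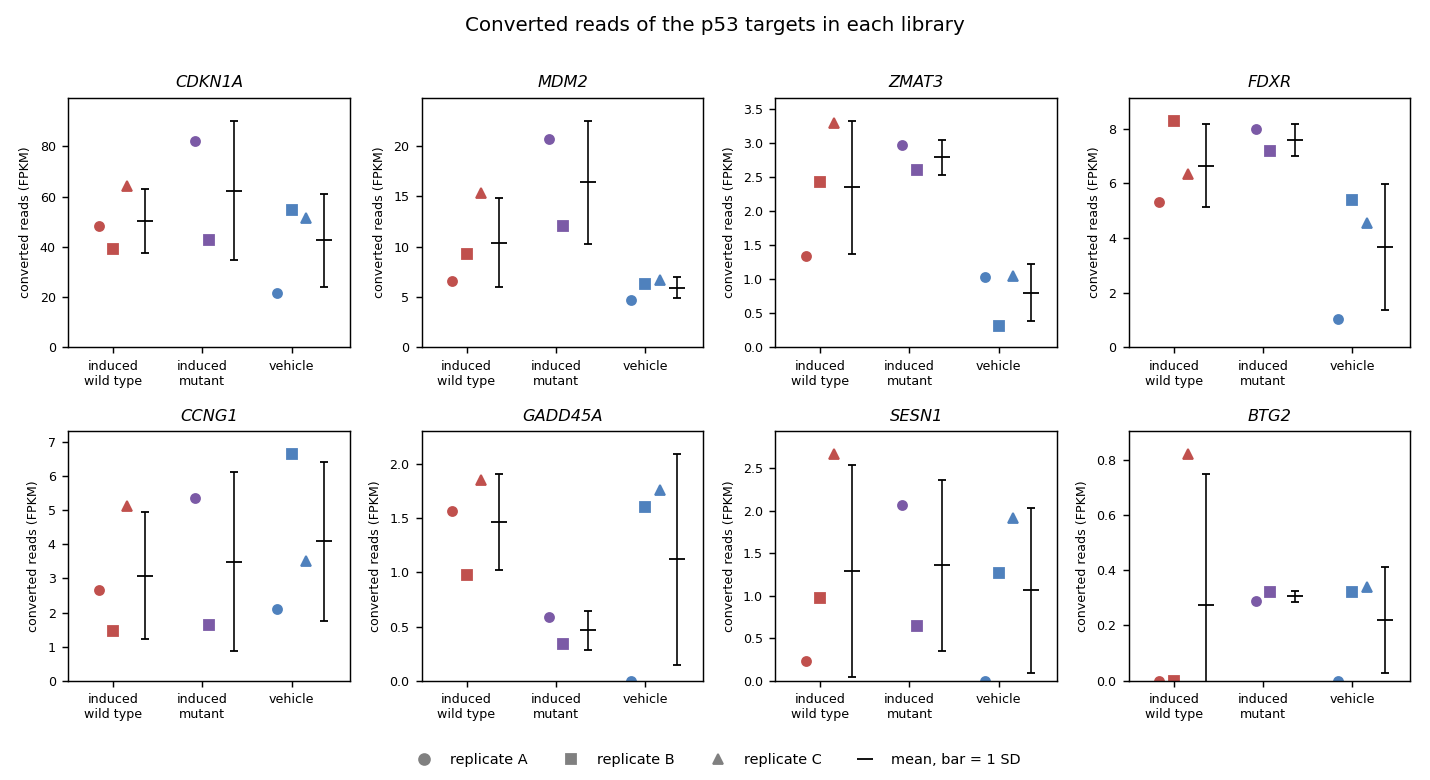
Converted-read FPKM (vertical axes, from 0) of the 8 p53 targets in that table in each library of induced wild type, induced mutant and vehicle, with replicate letters as symbols and the group mean ± 1 SD as black bars. MDM2 at 20.7 and 12.1 FPKM and ZMAT3 at 2.97 and 2.61 FPKM in induced mutant lie above all vehicle libraries, and SESN1 and GADD45A are listed at 0 in vehicle A.

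Of the 7 targets tested in converted reads none passed in any comparison by limma. Between induced mutant and vehicle 0.401% of genes passed and 11.8% had an unadjusted p under 0.05, as did 3 targets, MDM2, ZMAT3 and FDXR, and these same 3 did not overlap vehicle on the high side, as 20.4% of genes did not. Of the 7 targets 5 were above 0, against 62.9% of genes, with a median of 0.58 against 0.17 over all genes. In induced wild type minus vehicle 0% of genes passed, 6 of 7 targets were above 0 where 73% of genes were, and ZMAT3 and FDXR were the 2 targets with an unadjusted p under 0.05, where 7.93% of genes had one. In induced mutant minus induced wild type 0% of genes passed, and 0 targets had an unadjusted p under 0.05, as 2.95% of genes did. There 6 of 7 targets were above 0 where 46.1% of genes were, or 3 of 7 without induced mutant A. The FPKM summed over all genes was highest in induced wild type C at 44733 and lowest in vehicle A at 28206, so libraries differed in their converted total, and its part in these differences was not tested beyond the centring alternatives. With median centring MDM2 stood at 1.03 (limma adjusted p = 0.0999) for induced mutant minus vehicle and at 0.33 (adjusted p = 0.708) for induced wild type minus vehicle, and 4 of 7 targets were above 0 in each. Without vehicle A 4 of 7 were above 0 for induced mutant and 3 of 7 for induced wild type, and with the converted share as a covariate 4 and 3.

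**Figure D5:**
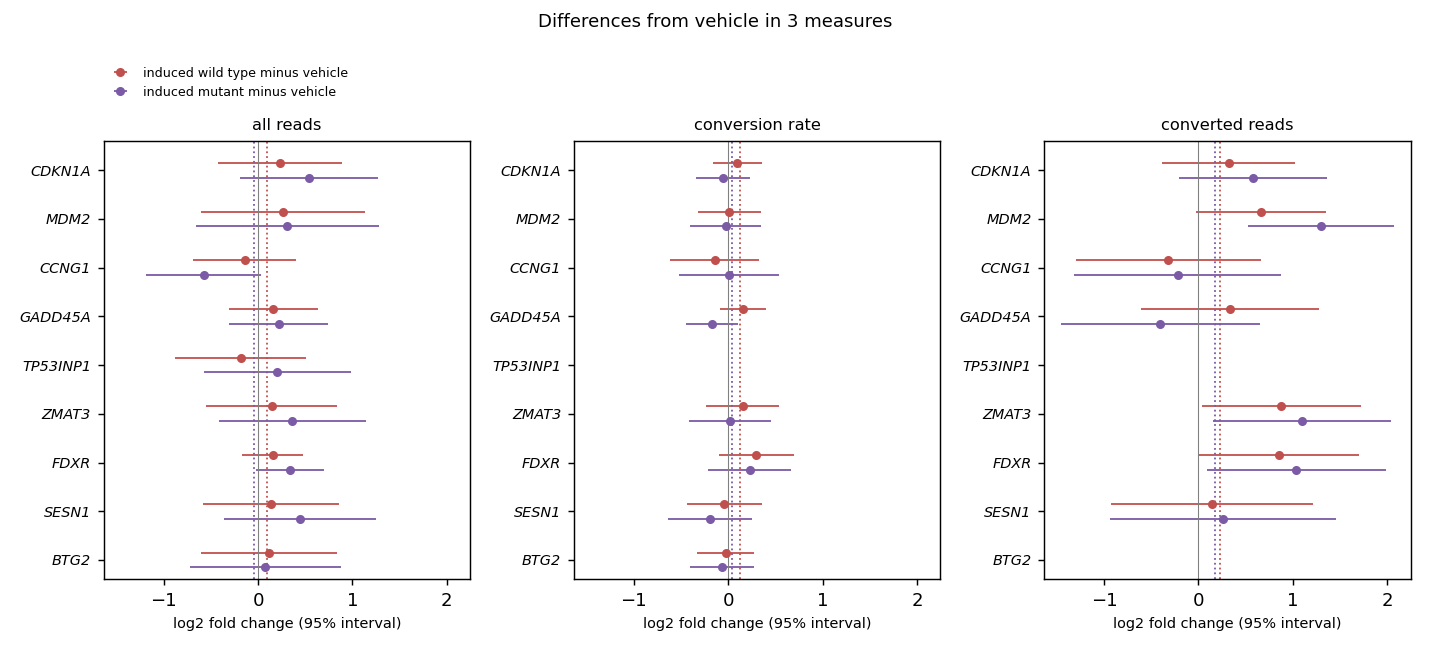
Log2 fold change with its 95% interval (horizontal axes) of the 9 p53 targets against vehicle, for induced wild type (red, upper) and induced mutant (purple, lower), in all reads, conversion rate and converted reads, with dotted lines at the median of all genes. The interval for MDM2 in induced mutant (0.52 to 2.07) and those for ZMAT3 and FDXR in both induced groups lie above 0 in converted reads, and none of the differences passed after adjustment.

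Of the rest of the pathway, 13 regulators of p53, 30 further targets and 14 genes that p21 and the DREAM complex repress were counted, and none passed in any of the 3 comparisons in any measure by limma. At an unadjusted p under 0.05 there were 0 of each list in all reads and in conversion rate, and 4 of 11 regulators, 1 of 14 further targets and 0 of 12 genes of mitosis in converted reads for induced mutant minus vehicle, where 11.8% of all genes had such a p. In converted reads for induced wild type minus vehicle there were 1, 1 and 0, against 7.93% of genes. For induced mutant minus induced wild type there were 1, 0 and 1, against 2.95% of genes, PPM1D at 1.24 (SE 0.46) and BUB1 at -1.12 (SE 0.43), both at a limma adjusted p of 1.00. Among the regulators tested in converted reads 10 of 11 were above 0 for induced mutant minus vehicle, where 62.9% of all genes were, with a median of 0.70 against 0.17 over all genes. For induced wild type minus vehicle, which shares the vehicle libraries, 11 of 11 were above 0, where 73% of all genes were. Their median there was 0.53 against 0.23 over all genes. The largest were HIPK2, a kinase that phosphorylates p53, at 1.66 (SE 0.51, limma adjusted p = 0.186) and CREBBP, an acetyltransferase and coactivator of p53, at 1.53 (SE 0.45, adjusted p = 0.167), and the one below 0 was TP53BP1, a mediator of the response to DNA breaks, at -0.04. Among the further targets tested 11 of 14 were above 0 for induced wild type minus vehicle, with a median of 0.32. For induced mutant minus vehicle 10 of 14 were above 0, with a median of 0.52. Ranked first by p above 0 there were BBC3 and SESN2. BBC3, the cell death protein PUMA, stood at 0.76 (SE 0.35, limma adjusted p = 0.419). SESN2, a second sestrin, stood at 1.09 (SE 0.52, adjusted p = 0.432). Below 0 stood POLH, a DNA polymerase that copies past lesions, at -0.44 (SE 0.38) and PMAIP1, the cell death protein NOXA, at -0.31 (SE 0.42). Of the 12 genes of mitosis tested in converted reads, 8 were above 0 for induced wild type minus vehicle, with a median of 0.10. For induced mutant minus vehicle 4 were above 0, and their median was -0.36. BUB1, a kinase of the spindle checkpoint, stood at -0.80 (SE 0.43) and CDC20, an activator of the anaphase-promoting complex, at -0.55 (SE 0.40) in the same comparison, while MYBL2, a transcription factor of the cell cycle, was at 0.64 (SE 0.50) and CCNB2, cyclin B2, at 0.43 (SE 0.49). Set against induced wild type, 0 of 12 genes of mitosis were above 0 in converted reads of induced mutant, where 46.1% of all genes were, and 1 of 14 in all reads, where 26.7% were. The counts of these lists were not repeated with single libraries left out, and the cause of their directions was not tested.

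These lists shared the slope on the converted share. It was positive with a limma adjusted p below 0.05 for 12 of 13 regulators, 19 of 24 further targets tested and 10 of 14 genes of mitosis, against the 54.1% of all genes. With each library centred on its median these became 8, 6 and 2, where 11.5% of all genes passed upward. Downward there passed 0 regulators, 4 further targets and 4 genes of mitosis, where 29.3% of all genes did. EP300, an acetyltransferase partner of p53, had 1.09 (SE 0.11) and PPM1D, the phosphatase that ends the p53 response, 0.80 (SE 0.09), both above MDM2. TNFRSF10B, a death receptor, had 0.61 (SE 0.07) and POLH 0.58 (SE 0.08), while RPS27L was at -0.06 (SE 0.07), below 0 like FDXR.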

How the data were processed

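SLAM-seq was read in 8 NALM6 libraries grouped by the labels, which state a stranded mRNA kit. The build was hg19 (GRCh37), per the submitters' processing notes. Neither the aligner nor the conversion caller is named there, and use of strand is not stated either.

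The all-read columns were deposited by the authors as CPM per RefSeq transcript, a signal that repeats reads over transcripts of a gene. In each library 100% of values were whole reads within 0.1 read. The conversion columns were deposited as a fraction per transcript, taken as converted over convertible bases because 41.9% of values resting on 1 read lay between 0 and 1. Converted reads were deposited as FPKM. A library's converted share was computed as the CPM-weighted mean of gene rates. A gene took its transcript row with the highest mean; 17 rows of the targets that carry no symbol were left out.

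Values were tested as log2(value + 1) with limma 3.58.1 (R 4.3.3, mean-variance trend), all 8 libraries in 1 fit, with Benjamini-Hochberg adjustment over all genes and a threshold of 0.05, where the mean was at least 1 CPM (12478 genes), 5 CPM for the rate (8737) or 1 FPKM (5737). The all-read test was repeated on recovered reads with edgeR 4.0.16 and DESeq2 1.42.0. A fold change understates low genes. All targets are named. Genes of a list are named from the 2 ranked first by p on either side of 0 in a comparison, in converted reads for induced mutant minus vehicle and some of the others; 1 further gene is not reported here. The members, lists and tests were chosen with earlier results of these data known. Figures used matplotlib 3.10.9, and promoters came from RefSeq, GRCh38.p14.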

Additional observations from a re-analysis of the deposited data

How the results depend on the processing

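The 9 counts of targets past the threshold stayed at 0 under each alternative run (another pseudocount, other filters, median centring, quantile normalization, only the 2 groups compared, mean over transcripts, no mean-variance trend, edgeR with either scaling and DESeq2 for all reads, and leaving out each replicate, range 0 to 0), with 3 exceptions of 1 target each. With the converted share as a covariate 1 target passed in all reads for induced mutant minus vehicle (CCNG1) and 1 in converted reads (MDM2). With the replicate block 1 passed in converted reads for induced mutant minus vehicle, MDM2 at 1.49 (limma adjusted p = 0.0396), and 149 genes in place of 23. The labels do not say that the replicate letters pair the libraries. Deviations of same-letter libraries from their group means had r of -0.64 to 0.65 in all reads. With 2 mutant libraries, A and B deviate as mirror images, so these r cannot settle whether a letter marks a shared culture or day. The block changed no other call of a target. The causes were not tested.

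The count of targets with a positive slope on the converted share was 8, where 6749 of 12478 genes had one. It became 3 with median centring (1436 genes), 4 with quantile normalization (2191 genes) and 0 with depth in its place (0 genes). It was 6 to 8 on leaving out each replicate.

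Counts of all genes moved by over 1.5 times in several settings. For induced mutant minus vehicle DESeq2 called 61 genes in all reads where limma called 4, and without a trend limma called 0 in converted reads where it had called 23, which became 93 with quantile normalization. With 2 mutant libraries, leaving out mutant A gave 0 calls in all reads and in converted reads. The depth limits TP53INP1 most, and no interval on a rate was possible.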
